A study of Mus musculus with 2 samples.

Results

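Of the microRNA genes, 7 known from leukocytes and from inflammation were followed in mouse calf muscle: *Mir142*, *Mir150*, *Mir223*, *Mir155*, *Mir146*, *Mir146b* and *Mir21a*. They were chosen by gene symbol in the GENCODE M21 annotation, with *Mir146* being the symbol of the miR-146a gene, and the 7 symbols were matched to 7 of the 2202 microRNA genes in the deposited tables. The study sequenced small RNA from the gastrocnemius, a large hindlimb muscle, of female B6CASTF1/J mice aged 36 days, for which the labels name no treatment. This strain is a first-generation cross of C57BL/6J and CAST/EiJ mice. The 2 libraries, called replicate 2 and replicate 1 after their labels, form a single group without a control or a treatment. Their labels describe differently numbered females but carry 1 donor identifier in common, so the spread between them may be that of 2 animals or only of 2 preparations.

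A microRNA is cut from a hairpin precursor and guides silencing proteins to messenger RNAs, which it recognises mainly through its seed, bases 2 to 8 from the 5′ end. Some microRNAs are made chiefly in blood cells. *Mir142* is active across the haematopoietic lineages, *Mir150* in mature lymphocytes and *Mir223* in neutrophils and other myeloid cells. *Mir155* and *Mir146* are switched on when lymphocytes and macrophages are activated, largely through NF-kB, and miR-146a acts back on that pathway by repressing Traf6 and Irak1. *Mir21a* is made in many cell types and is known for its increase in injured and fibrotic tissue. Skeletal muscle holds few leukocytes at rest, chiefly resident macrophages and the white cells within its blood vessels. In whole tissue, fewer cells of a type and less RNA per cell cannot be told apart.

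The mature sequences are shown with the seed in capitals because the seed decides which members could act on the same targets. They are from RefSeq for the GRCm38.p6 build and are written 5′ to 3′. No sequence of *Mir150* is shown, and the comparison of seeds does not cover it.
miR-142a-5p: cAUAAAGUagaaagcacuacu
miR-142a-3p: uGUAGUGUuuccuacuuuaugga
miR-155-5p: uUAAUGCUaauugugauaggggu
miR-223-3p: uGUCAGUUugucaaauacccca
miR-146a-5p: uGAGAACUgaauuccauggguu
miR-146b-5p: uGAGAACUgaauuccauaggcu
miR-21a-5p: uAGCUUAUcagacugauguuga
Only miR-146a-5p and miR-146b-5p had the same seed among these sequences. They differ by G18A and U21C, counted from 1 at the 5′ end with the base of miR-146a-5p first, so the first 17 of 22 bases are identical. Outside the set, 1 other mature microRNA of the RefSeq table shared a seed with a sequence shown here. This was miR-21c, whose seed is that of miR-21a-5p.

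Of the members, 6 had at least 10 reads in both libraries, the minimum used here for calling a gene detected, and *Mir146b* did not. In all, 273 genes were detected. Together the members held 17789 of 2078101 gene-assigned reads in replicate 2 (0.856%) and 16692 of 1593787 in replicate 1 (1.05%). *Mir21a* alone made up 69.8% of the members' reads in replicate 2 and 84.8% in replicate 1. Without it the other 6 genes held 0.259% of gene-assigned reads in replicate 2 and 0.159% in replicate 1. The share of the 7 genes was thus smaller in replicate 2 while that of the 6 genes without *Mir21a* was larger there.

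These levels rest on reads that were placed at 1 site in the genome. Reads that matched several places belong to no gene and outnumbered the assigned ones, by 5.25 times in replicate 2 and by 4.51 times in replicate 1. Among the 2202 annotated hairpins, *Mir146* and *Mir146b* shared a stretch of 21 bases with each other. For the other members the longest stretch shared with any microRNA hairpin at another locus was 12 to 15 bases. Joining of adapters differs between sequences, so comparing the levels of different microRNAs is approximate. The tissue label was checked against the skeletal muscle list, of which all 6 genes had reads and 5 were detected. All 7 genes of the epithelial list had reads too, so having reads does not by itself tell tissues apart. *Mir206*, made almost only in skeletal muscle, had 67030 counts per 1000000 gene-assigned reads (CPM) in replicate 2 and 20624 in replicate 1.

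**Figure D1:**
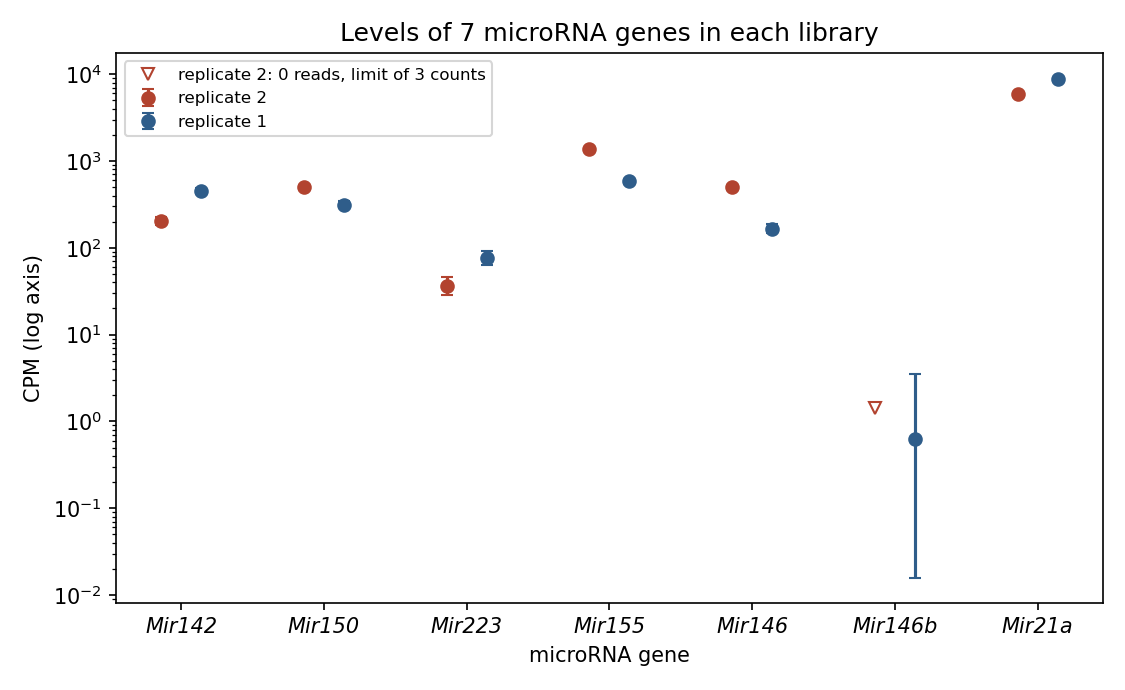
Levels of the 7 genes in CPM on a log axis, with replicate 2 left of replicate 1. Bars are exact 95% counting intervals and the open triangle marks the 1.44 CPM that 3 counts would give where no read was found. *Mir21a* is highest in both libraries and *Mir146b* lies far under the others.

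*Mir142*, the gene of the whole haematopoietic system, had 422 reads in replicate 2 and 715 in replicate 1. These were 203 CPM in replicate 2 (95% counting interval 184 to 223) and 449 CPM in replicate 1 (416 to 483), and the gene ranked 120 among all genes in replicate 2 and 84 in replicate 1. Its level was 2.11-fold lower in replicate 2 after scaling of the libraries (1.87 to 2.38), where the intervals here and below cover counting error only.

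*Mir142* lies on chromosome 11, 87756864 to 87756927, on the plus strand (mm10 build), in an intron of the noncoding gene *Mir142hg*. Its hairpin is shown with the 5p and 3p arms in capitals, because a second annotated gene covers it whole.
Mir142: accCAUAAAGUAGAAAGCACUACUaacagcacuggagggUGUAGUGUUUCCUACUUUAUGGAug
That gene, *Mir142b*, is annotated on the minus strand, 87756841 to 87756955. It had 0 reads on its own strand in both libraries, so all reads at the site had the orientation of *Mir142*. Either arm can accumulate, and a count per hairpin does not tell them apart.

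*Mir223*, the myeloid gene, was the scarcest detected member with 76 reads in replicate 2 and 123 in replicate 1. It reached 36.6 CPM (28.8 to 45.8) in replicate 2 and 77.2 CPM (64.1 to 92.1) in replicate 1. It was 2.01-fold lower in replicate 2, with an interval of 1.5 to 2.72 that reaches to both sides of 2-fold. The gene lies on chromosome X, 96242817 to 96242926, plus strand, within an exon of both transcripts of the noncoding gene *F630028O10Rik*. *Mir142* and *Mir223* were thus both lower in replicate 2.

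*Mir150*, the lymphocyte gene, went the other way, with 1028 reads in replicate 2 and 500 in replicate 1. Its level was 495 CPM in replicate 2 (465 to 526) against 314 CPM in replicate 1 (287 to 342). The gene was 1.65-fold higher in replicate 2 (1.48 to 1.84). It is placed on chromosome 7, 45121757 to 45121821, plus strand, in no other annotated gene. The one other microRNA gene within 10 kb of it, *Mir5121*, had 22 reads in replicate 2 and 10 in replicate 1.

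Both activation-linked genes were higher in replicate 2. *Mir155* had 2820 reads in replicate 2 and 928 in replicate 1, or 1357 CPM in replicate 2 (1307 to 1408) against 582 CPM in replicate 1 (545 to 621). It was 2.44-fold higher in replicate 2 (2.27 to 2.63). It is on chromosome 16, 84714140 to 84714204, plus strand, within an exon of both transcripts of its noncoding host gene *Mir155hg*. In both libraries it was the most abundant member after *Mir21a*, with rank 52 among all genes in replicate 2 and 78 in replicate 1.

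*Mir146* showed the widest difference of the set. It had 1028 reads in replicate 2, the same number as *Mir150* in that library, and 264 in replicate 1. Its level was 495 CPM (465 to 526) in replicate 2 and 166 CPM (146 to 187) in replicate 1. The fold was 3.13 in favour of replicate 2 (2.73 to 3.60), and of the 273 detected genes 12 had a larger difference in either direction. The gene stands apart from protein-coding genes on chromosome 11, 43374397 to 43374461, minus strand, 45789 bases from the nearest, *Pttg1*.

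*Mir146b*, which carries the same seed, had almost no reads. There were 0 reads in replicate 2, which allows up to 1.44 CPM, and 1 read in replicate 1 (0.627 CPM, 0.0159 to 3.50). In replicate 2, 0 reads beside 1028 of *Mir146* allow up to 0.292 reads of *Mir146b* per 100 of *Mir146*. In replicate 1 the single read was 0.379 per 100 of *Mir146* (0.00955 to 2.13). Almost all reads counted at this pair of genes, which make the seed GAGAACU, were therefore at *Mir146* in both libraries. Reads within the 17 bases common to both mature forms would match both sites and are in neither count. *Mir146b* is on chromosome 19, 46342762 to 46342870, plus strand, in an intron of the protein-coding gene *Mfsd13a*.

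*Mir21a*, the broadly made injury-linked gene, had 12415 reads in replicate 2 and 14161 in replicate 1. This was 5974 CPM in replicate 2 (5870 to 6080) and 8885 CPM in replicate 1 (8740 to 9032), with rank 29 in replicate 2 and 22 in replicate 1. It was 1.42-fold lower in replicate 2 (1.39 to 1.45). The gene overlaps the end of *Vmp1*, a gene of autophagy, on chromosome 11, 86584067 to 86584158, minus strand, where it lies in the untranslated part of an exon in 1 of 8 annotated *Vmp1* transcripts. The genes *Mir21b* and *Mir21c* also carry its name. Their mature forms are shown because one keeps the seed and the other does not.
miR-21b: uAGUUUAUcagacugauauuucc
miR-21c: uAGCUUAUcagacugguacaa
miR-21b departs from miR-21a-5p within the seed, at C4U, while miR-21c departs from it first at A16G. Neither *Mir21b* nor *Mir21c* had a read in either library, so of the genes with this seed in the RefSeq table *Mir21a* alone had reads.

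By mean level the order was *Mir21a* with 7430 ± 2058 CPM, *Mir155* with 970 ± 548, *Mir150* with 404 ± 128, *Mir146* with 330.2 ± 233, *Mir142* with 326 ± 174, *Mir223* with 56.9 ± 28.7 and *Mir146b* with 0.314 ± 0.444 (SD, n = 2). The values of *Mir150* and *Mir146* overlapped between the libraries, as did those of *Mir146* and *Mir142*, so the order within these 3 genes did not hold beyond the spread. *Mir142* had the second highest level among the 6 genes other than *Mir21a* in replicate 1 and the second lowest among the detected ones in replicate 2. The other neighbours in the order did not overlap.

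**Figure D2:**
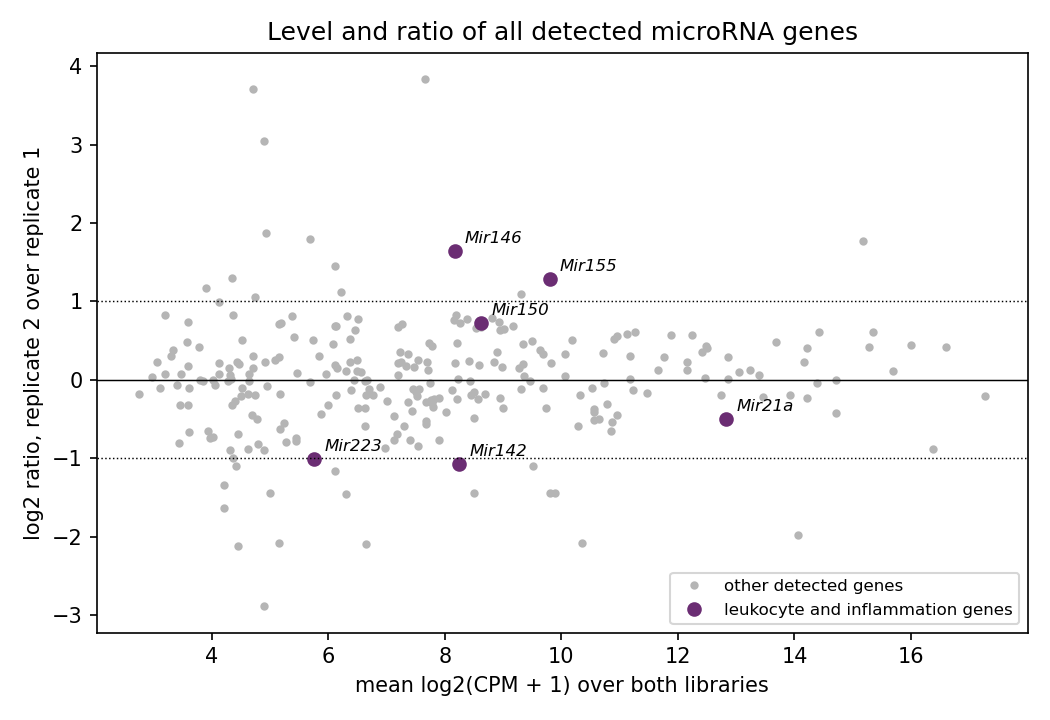
Each point is 1 of 273 detected genes, with its mean log2(CPM + 1) over both libraries on the horizontal axis and its log2 ratio of replicate 2 over replicate 1 on the vertical axis. Dotted lines mark 2-fold, which *Mir146* and *Mir155* exceed upwards and *Mir142* and, narrowly, *Mir223* exceed downwards. The counting intervals of the latter 2 genes reach to both sides of 2-fold.

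All 6 detected members differed between the libraries by an exact binomial test with Benjamini-Hochberg adjustment over all detected genes. The test asks whether reads divided as the scaled library sizes would give and compares these libraries, not conditions. It called 63.0% of all detected genes, 33.3% as higher and 29.7% as lower in replicate 2, so a call says little by itself. Of the members 3 were higher and 3 lower in replicate 2, and the largest adjusted p was 3.73e-06, for *Mir223*. More than 2-fold differences were found for 4 of the 6 detected members, 2 in each direction, against 12.1% of all detected genes (5.13% higher and 6.96% lower). The counting intervals of *Mir142* (1.87 to 2.38) and *Mir223* (1.5 to 2.72) reach to both sides of 2-fold. The members were also chosen with earlier results of these data known. The median log2 ratio was 0.11 over the 6 detected members and 0.02 over all detected genes, and the median size of the log2 ratio without its sign was 1.04 over the members and 0.36 over all.

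The spread usual between the libraries sets a limit to these calls. The common dispersion of edgeR over all detected genes corresponded to a coefficient of variation of 0.335 between the libraries. With edgeR's exact test at that dispersion 0 members and 4 genes in all passed, with adjusted p = 0.467 for *Mir146*, 0.894 for *Mir155* and 1 for the other 4 members. Before adjustment *Mir146* was the 1 member with a p under 0.05 by edgeR's exact test (p = 0.0222). The share of all detected genes under that unadjusted threshold was not counted, so this p does not set *Mir146* apart.

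**Figure D3:**
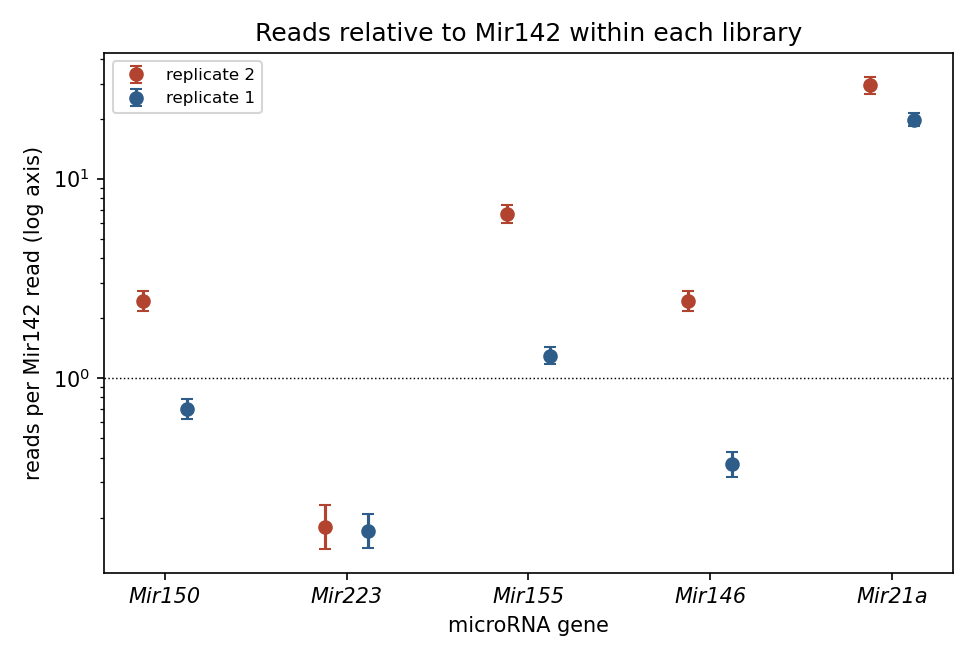
Reads of 5 members per read of *Mir142* within each library, on a log axis with replicate 2 left of replicate 1 and exact 95% counting intervals. *Mir223* had nearly the same ratio in both libraries, while the ratios of *Mir150*, *Mir155* and *Mir146* were higher in replicate 2.

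Ratios within a library need no scaling, and they show how the members moved against each other. *Mir142* was taken as the denominator after its values had been seen. *Mir223* had 0.180 reads per *Mir142* read in replicate 2 (0.139 to 0.230) and 0.172 in replicate 1 (0.141 to 0.209), and these intervals overlap. *Mir155* had 6.68 reads per *Mir142* read in replicate 2 (6.03 to 7.42) and 1.30 in replicate 1 (1.18 to 1.43). *Mir146* had 2.44 in replicate 2 (2.17 to 2.73) and 0.369 in replicate 1 (0.319 to 0.426). *Mir223* thus kept its ratio to *Mir142* within counting error, while *Mir155*, *Mir146* and, as given below, *Mir150* and *Mir21a* did not. Genes outside the set also came close to the log2 ratio of *Mir142* between the libraries (-1.08), such as *Mir106b* (-1.10). How many detected genes kept their ratio to *Mir142* was not counted, so the kept ratio is not shown to be particular to *Mir223*. As *Mir142* was itself 2.11-fold lower in replicate 2, at least 89.0% of detected genes had a higher ratio to it there. The direction of these ratios therefore says nothing particular to the activation-linked genes.

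*Mir150* had 2.44 reads per *Mir142* read in replicate 2 (2.17 to 2.73) and 0.699 in replicate 1 (0.623 to 0.785). *Mir21a* had 29.4 in replicate 2 (26.7 to 32.5) and 19.8 in replicate 1 (18.4 to 21.4). Between the activation-linked genes, *Mir155* had 2.74 reads per *Mir146* read in replicate 2 (2.55 to 2.95) and 3.52 in replicate 1 (3.06 to 4.05), a smaller shift than that of either gene against *Mir142*. Among the 6 genes without *Mir21a*, the part of *Mir142* was 7.85% of reads in replicate 2 and 28.2% in replicate 1. *Mir155* took up 52.5% of these reads in replicate 2 and 36.7% in replicate 1, and *Mir146* 19.1% in replicate 2 and 10.4% in replicate 1. The part of *Mir150* was 19.1% in replicate 2 and 19.8% in replicate 1.

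The 2 red cell markers listed here moved with *Mir142* and *Mir223*. Both genes of the erythroid list, *Mir451a* and *Mir144*, were lower in replicate 2, beside 29.7% of all detected genes called lower. The summed share of these 2 genes was 0.898% in replicate 2 and 3.73% in replicate 1. *Mir451a* had 17377 reads in replicate 2 and 55120 in replicate 1, and *Mir144* had 1289 in replicate 2 and 4404 in replicate 1. *Mir142* and *Mir223* were lower by a smaller factor, so that *Mir142* had 24.3 reads per 1000 of *Mir451a* in replicate 2 (22.0 to 26.7) and 13.0 in replicate 1 (12.0 to 14.0). *Mir486*, which red cells share with other cells and which is not in the list, went the other way. It had 2431 reads in replicate 2 and 1549 in replicate 1 (log2 ratio 0.33). The part of blood content in the member differences was not tested.

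Other cell types were gauged by their lists. The skeletal muscle list held 6.75% of reads in replicate 2 and 2.11% in replicate 1, nearly all *Mir206*. Of its 5 detected genes 2 were higher, *Mir206* among them, 0 lower and 3 did not pass, with a median log2 ratio of 0.07. Reads matching both *Mir1a-1* and *Mir1a-2*, or both *Mir133a-1* and *Mir133a-2*, are in no count. The share and the median of this list leave them out. The endothelial gene *Mir126a* held 11.3% in replicate 2 and 8.82% in replicate 1, and the smooth muscle list, mostly *Mir143*, 6.25% in replicate 2 and 12.0% in replicate 1. The fibroblast list held 0.0698% in replicate 2 and 0.0652% in replicate 1. The share of the epithelial list was 0.0152% in replicate 2 and 0.0280% in replicate 1. Of the 4 fibroblast genes 1 was higher, 1 lower and 1 did not pass, with *Mir199a-1* at 0 reads in both libraries. Reads matching both *Mir199a-1* and *Mir199a-2* are in neither count, so 0 reads or a low share need not mean a scarce microRNA. Of the 7 epithelial genes 3 were detected, of which 2 were lower and 1 did not pass. The calls in these lists stand beside the 63.0% of all detected genes called, 33.3% as higher and 29.7% as lower. The part of these cell types in the member differences was likewise not tested.

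**Figure D4:**
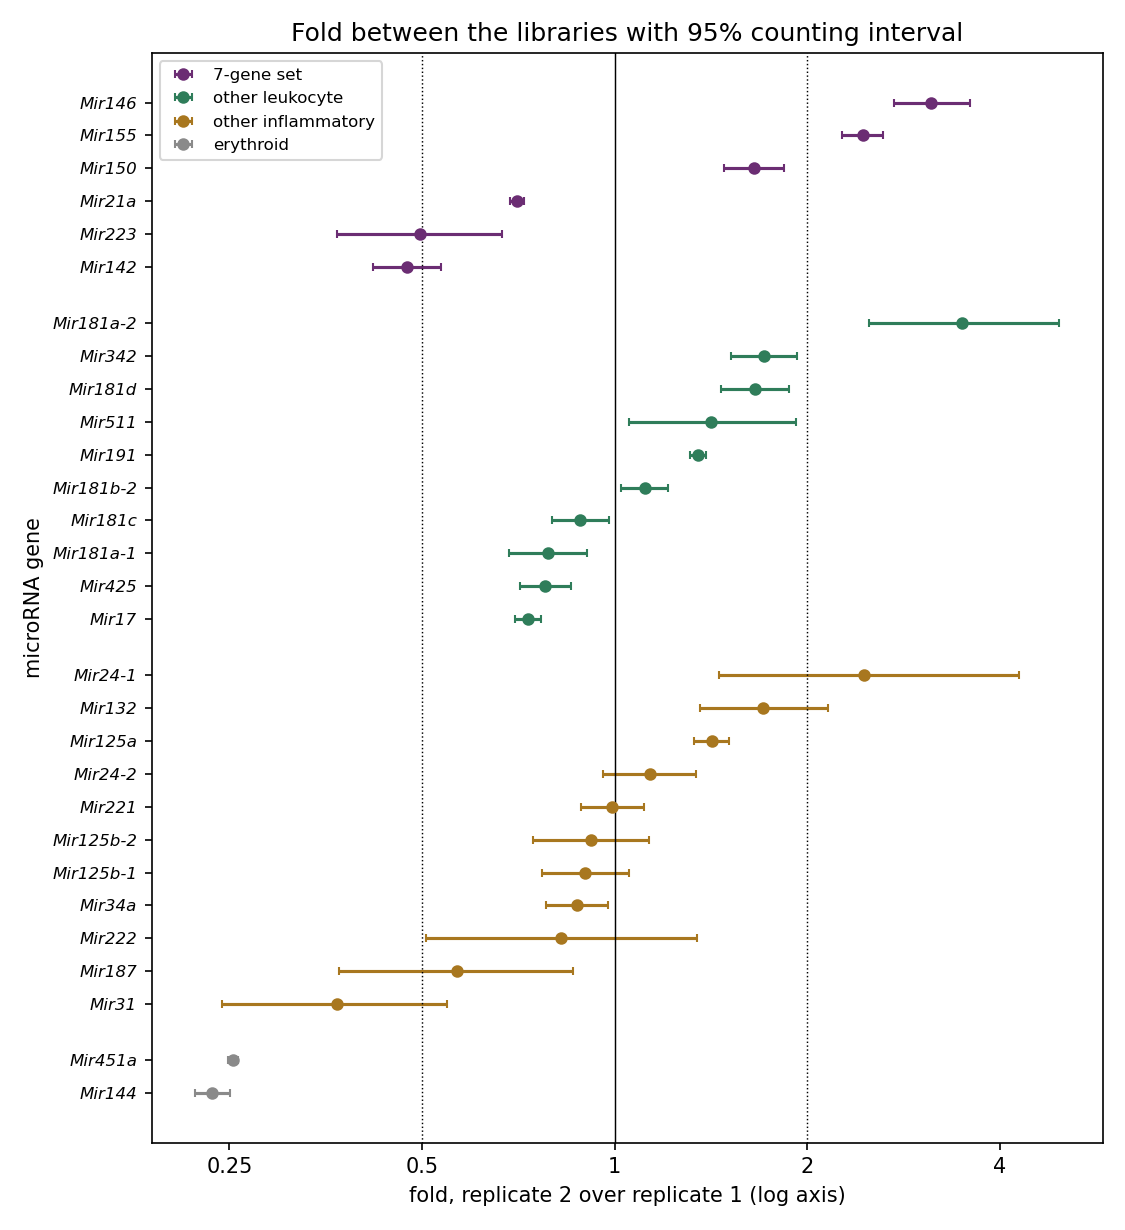
Fold of replicate 2 over replicate 1 on a log axis for the detected genes of the 7-gene set, of the lists of other leukocyte and other inflammatory microRNAs and of the erythroid list, with exact 95% counting intervals. The solid line marks equal levels and dotted lines mark 2-fold in either direction.

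Further microRNAs of leukocytes moved in both directions as well. Of 12 listed, 11 were matched and 10 detected, of which 6 were higher, 4 lower and 0 did not pass the binomial test, against the 63.0% of all detected genes that were called. Of the 10, 1 gene exceeded 2-fold, beside 12.1% over all detected genes. This was *Mir181a-2*, which was higher in replicate 2 and is named after its value was seen. The list held 1.07% of reads in replicate 2 and 0.986% in replicate 1, with a median log2 ratio of 0.30. *Mir191*, widely made and abundant in blood cells, had 13413 reads in replicate 2 against 7980 in replicate 1 and was 1.35-fold higher in replicate 2 (1.31 to 1.39). Its partner in the same transcript, *Mir425*, had 917 reads in replicate 2 against 946 in replicate 1 and was 1.28-fold lower (1.17 to 1.41). *Mir17*, the first gene of a cluster that supports lymphocyte growth, had 3439 reads in replicate 2 against 3778 in replicate 1 and was 1.37-fold lower (1.31 to 1.43).

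*Mir342*, a lymphocyte-rich microRNA in an intron of *Evl*, and *Mir511*, in an intron of the macrophage receptor gene *Mrc1*, were chosen for mention after their values were seen. *Mir342* had 884 reads in replicate 2 and 415 in replicate 1 and was 1.71-fold higher (1.52 to 1.93), close to the 1.65-fold of *Mir150*. *Mir511* had 127 reads in replicate 2 against 72 in replicate 1 and was 1.42-fold higher (1.05 to 1.92). *Mir181b-2*, of a family that tunes T cell receptor signalling, had 1328 reads in replicate 2 against 957 in replicate 1 and was 1.11-fold higher (1.03 to 1.21). The mature products of the *Mir181a* and *Mir181b* genes each come from a pair of loci, so these counts cover only reads placed at 1 site.

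Of 16 listed microRNAs of inflammatory signalling outside the set, 11 were detected. Higher levels in replicate 2 were called for 3 of them and lower levels for 3, while 5 did not pass, beside the 63.0% called over all detected genes. Of these genes, 2 exceeded 2-fold, beside 12.1% over all, *Mir24-1* upwards and *Mir31* downwards, both named after their values were seen. *Mir24-1* had only 61 reads in replicate 2 and 20 in replicate 1. *Mir24-2*, of the same list, had 346 reads in replicate 2 and 245 in replicate 1 and a fold of 1.13, which did not pass. Reads matching both of these sites are in neither count. The list held 0.265% of reads in replicate 2 and 0.239% in replicate 1, and its median log2 ratio was -0.12. *Mir125a*, made in macrophages and many other cells, had 2815 reads in replicate 2 and 1595 in replicate 1 and was 1.42-fold higher (1.33 to 1.51). *Mir34a*, a target of p53, had 664 reads in replicate 2 against 610 in replicate 1 and was 1.14-fold lower (1.02 to 1.28). *Mir221*, made in vascular cells among others, had 698 reads in replicate 2 against 565 in replicate 1 and a fold of 0.993 (0.887 to 1.11), which did not pass.

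The remaining named gene of that list, *Mir125b-1*, had 346 reads in replicate 2 against 309 in replicate 1 and a fold of 0.900 (0.769 to 1.05), which did not pass either. Its mature product also comes from *Mir125b-2*. *Mir147*, which is induced by Toll-like receptor signals in macrophages, had 2 reads in replicate 2 and 0 in replicate 1.

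The detected gene nearest to each member in level was found by Euclidean distance in log2(CPM + 1) over the 2 libraries. *Mir493* was nearest to *Mir150*, at 0.0370, with 1006 reads in replicate 2 and 507 in replicate 1. *Mir196b* was nearest to *Mir21a* at 0.259, with 12900 reads in replicate 2 against 11885 in replicate 1. For *Mir223* it was *Mir7-1* at 0.423 (100 reads in replicate 2 against 109 in replicate 1), and for *Mir142* it was *Mir708* at 0.457 (446 reads in replicate 2 against 977 in replicate 1). *Mir146* and *Mir155* lay further from any other gene, the nearest being *Mir539* at 0.577 (791 reads in replicate 2 against 358 in replicate 1) and *Mir497* at 0.681 (1838 reads in replicate 2 against 1134 in replicate 1).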

How the data were processed

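The authors deposited 1 table of raw counts for each library, by microRNA gene of the M21 annotation on mm10, per the read-me text that accompanies it. The programs that aligned and counted reads are not stated in the sources used. The library size range was under 30 nucleotides, per the labels. The tables have no header. From their layout and values the columns were taken as counts disregarding strand, on the strand of the gene (used here) and opposite to it. Summary rows for reads that were unmapped (5.98% in replicate 2, 6.37% in replicate 1), that matched several places (77.6%, 75.4%) or that lay outside microRNA genes (1.65%, 1.49%) stayed out of library sizes.

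CPM were computed per 1000000 gene-assigned reads. Libraries were scaled with TMM factors of 0.977 for replicate 2 and 1.02 for replicate 1 (edgeR 4.0.16, R 4.3.3), computed over genes with at least 10 reads in both. Folds are replicate 2 over replicate 1, turned round where a gene is called lower. Intervals are exact (Clopper-Pearson) at 95%, a count of 0 allows up to 3 counts, and both cover counting error only, since PCR copies were not told apart. The two-sided exact binomial test used an adjusted threshold of 0.05. Its p-values measure counting error only and take no account of the usual spread between libraries. Those of edgeR's exact test use the spread between these libraries, which may be technical.

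Members and lists were chosen with earlier results of these data known. The lists were other leukocyte, other inflammatory, erythroid, endothelial, smooth muscle, skeletal muscle, fibroblast and epithelial microRNAs. Named were all members, the nearest gene in level to each, neighbours within 10 kb, genes sharing a seed, and up to 4 of the most abundant genes of a list, with exceptions stated. Alternatives were other scalings, including DESeq2 1.42.0 size factors, other read minimums, a pseudocount of 0.5, other totals, counts without regard to strand, edgeR's exact test and leaving out a replicate. The computation ran in Python 3.11.15 with scipy 1.17.1, pandas 2.3.3, numpy 2.4.6 and matplotlib 3.10.9.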

Additional observations from a re-analysis of the deposited data

Results flagged for a closer look

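Some counts stand in columns and rows outside the comparisons between the libraries. At *Mir142b*, on the other strand of *Mir142*, the column of opposite-strand counts held 422 reads in replicate 2 and 715 in replicate 1, the same numbers as *Mir142* has on its own strand, since these are the reads at the hairpin of *Mir142*. The summary row of multiply matched reads held 10919725 reads in replicate 2 and 7195252 in replicate 1. All 4 values exceed the limit of 3 counts set by a count of 0. How many of the multiply matched reads derive from the 7 genes was not analysed here.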

How the results depend on the processing

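Each detected member kept its direction in all 35 repeats of its log2 ratio under other settings, and its call in 29 of them. The other 6 came from the exact test of edgeR with a common dispersion, where 0 members and 4 of all genes passed. All 35 repeats used the same member counts and changed only the scaling, the genes tested or the test. The kept directions are therefore not independent support. The log2 ratios ranged from -1.16 to -1.08 for *Mir142*, -1.09 to -1.01 for *Mir223*, -0.58 to -0.51 for *Mir21a*, 0.64 to 0.72 for *Mir150*, 1.21 to 1.29 for *Mir155* and 1.57 to 1.65 for *Mir146*. With at least 50 reads in both libraries 18 of 200 tested genes exceeded 2-fold in place of 33 of 273. The members over 2-fold stayed at 4, but all 6 detected members pass this minimum, so it could remove none of them. Genes called as higher and lower in replicate 2 numbered 91 and 81, 78 and 92 with scaling by total reads, and 81 and 99 with no read minimum.

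The mean share of the members, 0.952%, was 0.163% when the total included multiply matched reads, 1.13% without the most abundant gene in the total and 1.32% with counts without regard to strand. It was 0.856% and 1.05% in the single libraries. Without regard to strand *Mir142* had 0 reads, because its hairpin lies within *Mir142b* on the other strand, and its level on the log2(CPM + 1) scale was then 0 in place of 8.24. That setting, with its smaller total, put *Mir150* at 9.15 in place of 8.63 and *Mir21a* at 13.35 in place of 12.83. A pseudocount of 0.5 put *Mir146b* at -0.41 in place of 0.35. The ratio of *Mir146b* to *Mir146* rests on 1 read. No paired analysis was possible because the design has 1 group. Leaving out a library ends every comparison between them.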

Other observations

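Ratios to the red cell marker *Mir451a* were chosen after the values were seen. *Mir451a* was itself 3.95-fold lower in replicate 2, so that 267 of the 273 detected genes had a higher ratio to it there, and the direction of these ratios says nothing particular to the members. *Mir155* had 162 reads per 1000 of *Mir451a* in replicate 2 and 16.8 in replicate 1. *Mir150* had 59.2 in replicate 2 and 9.07 in replicate 1, and *Mir142* 24.3 in replicate 2 and 13.0 in replicate 1. *Mir223* had 4.37 in replicate 2 (3.44 to 5.48) and 2.23 in replicate 1 (1.85 to 2.66). The lymphocyte-rich *Mir342* had 2.09 reads per *Mir142* read in replicate 2 (1.86 to 2.36) and 0.580 in replicate 1 (0.513 to 0.656).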
